A study of Sus scrofa with 12 samples.

Results

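The transcripts of 10 chaperone genes were read in 6 pig ovaries. They were the rows of the deposited gene table with exactly the symbols HSPA5, HSP90B1, HSPA8, HSPH1, HSP90AA1, HSP90AB1, HSPB1, HSPA9, HSPD1 and HSPE1, 10 of the 29884 genes in the table, and all 10 passed the filter on low values. The ovaries came from sows of small litter size (SLS, ovaries ZD2, ZD3 and ZD12) and of large litter size (LLS, ovaries ZD5, ZD7 and ZD8), with means of 8.48 and 16.19 piglets per litter. In both groups the left ovary was frozen 4 days after delivery number 4, and the sows of both groups came from 1 commercial farm that was free of 2 common pig viruses. Breed and age are not given in the sources used here. RNA without ribosomal RNA was sequenced from the whole ovary, with 1 library per ovary, so that fewer cells of a type and less RNA per cell cannot be told apart in any value below.

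Chaperones bind proteins that are not yet folded or have lost their fold, most of them in cycles driven by ATP. HSP70 proteins hold short greasy stretches of a chain, HSP90 proteins act later on nearly folded clients such as steroid hormone receptors, and the HSP60 and HSP10 proteins form a closed chamber in mitochondria. Each compartment has its own set, so that HSPA5 and HSP90B1 work in the endoplasmic reticulum (ER), HSPA8, HSPH1, HSP90AA1, HSP90AB1 and HSPB1 in the cytosol, and HSPA9, HSPD1 and HSPE1 in the mitochondrial matrix. The corpus luteum, the gland that forms after ovulation and makes progesterone, is rich in both ER and mitochondria.

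The libraries held between 32272803 (ZD8) and 60903268 reads (ZD2). ZD8 stood apart. The summed level of 6 luteal marker genes was between 9167 and 12191 FPKM (sequenced fragments scaled to transcript length and library size) in the other 5 ovaries and 123 FPKM in ZD8. None of these 6 genes was at 0 in ZD8, but STAR, which carries cholesterol into mitochondria, had 26.4 FPKM there against 2542 to 5418 FPKM elsewhere. The 2 theca markers summed to 415 FPKM in ZD8 and to at most 74.4 FPKM in the others, the 5 oocyte markers to 101 and at most 20.02 FPKM. CYP19A1, the granulosa enzyme of estrogen synthesis, was at 0 in 5 of the 6 ovaries. Differences between the groups are therefore given with and without it for each member, and the part of cell makeup in these results was not tested.

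The sequences before the annotated starts of the genes are shown because the 2 ER chaperones differ in them from the other members. The windows are from Sscrofa11.1 with the starts of the RefSeq annotation, from 230 bases before to 20 bases after the start, 5′ to 3′ on the strand of the gene. These 2 kinds of motif were searched in the window from 250 bases before to 50 bases after the start. The first was the ER stress element, CCAAT and CCACG 9 bases apart, on both strands. The second was a pair of facing heat shock boxes, GAANNTTC or TTCNNGAA, each of which reads the same on both strands, and the 2 forms may overlap. Capitals mark the matches.
HSPA5 (chr1:265934940-265935189, minus strand): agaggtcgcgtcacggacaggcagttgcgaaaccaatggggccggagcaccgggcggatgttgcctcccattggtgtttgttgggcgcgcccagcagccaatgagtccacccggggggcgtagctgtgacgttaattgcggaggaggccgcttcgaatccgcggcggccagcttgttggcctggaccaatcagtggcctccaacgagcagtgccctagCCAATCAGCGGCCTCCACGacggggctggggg
HSP90B1 (chr5:80530997-80531246, minus strand): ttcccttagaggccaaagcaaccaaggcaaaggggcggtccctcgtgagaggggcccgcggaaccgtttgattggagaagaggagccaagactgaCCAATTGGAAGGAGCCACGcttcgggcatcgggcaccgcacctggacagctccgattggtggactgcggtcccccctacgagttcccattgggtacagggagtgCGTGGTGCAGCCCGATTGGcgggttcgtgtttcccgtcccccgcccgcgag
HSPA8 (chr9:49986741-49986990, minus strand): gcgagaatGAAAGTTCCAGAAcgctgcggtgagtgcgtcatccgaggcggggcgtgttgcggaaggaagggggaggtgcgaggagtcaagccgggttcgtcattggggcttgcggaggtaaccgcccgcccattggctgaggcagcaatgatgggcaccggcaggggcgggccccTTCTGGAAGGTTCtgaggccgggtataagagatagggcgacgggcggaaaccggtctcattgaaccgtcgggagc
HSP90AB1 (chr7:39237069-39237318, plus strand): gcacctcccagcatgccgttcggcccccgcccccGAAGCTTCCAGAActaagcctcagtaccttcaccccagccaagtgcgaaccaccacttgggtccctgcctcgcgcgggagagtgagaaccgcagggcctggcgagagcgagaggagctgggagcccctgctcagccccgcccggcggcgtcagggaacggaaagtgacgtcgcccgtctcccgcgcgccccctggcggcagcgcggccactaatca
HSPD1 (chr15:101373479-101373728, minus strand): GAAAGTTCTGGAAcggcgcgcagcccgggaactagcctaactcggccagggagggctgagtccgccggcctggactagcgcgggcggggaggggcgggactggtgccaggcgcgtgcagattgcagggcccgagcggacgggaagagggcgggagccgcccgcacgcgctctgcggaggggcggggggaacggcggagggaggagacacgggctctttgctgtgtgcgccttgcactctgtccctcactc
HSPE1 (chr15:101373789-101374038, plus strand): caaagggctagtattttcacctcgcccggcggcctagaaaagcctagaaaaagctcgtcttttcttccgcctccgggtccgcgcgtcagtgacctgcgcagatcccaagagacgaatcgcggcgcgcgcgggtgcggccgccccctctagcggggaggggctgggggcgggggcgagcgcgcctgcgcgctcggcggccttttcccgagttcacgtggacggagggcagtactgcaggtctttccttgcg
The ER stress element stood in both ER chaperones, 1 time in HSPA5, where it ran from 12 bases before the start to base 7 after it, and 2 times in HSP90B1. It was present in 16 of the 20664 protein-coding promoters searched (0.08%). A pair of heat shock boxes stood in the windows of HSPA8, HSP90AB1, HSPD1, HSPH1 and HSPB1, against 12.5% of all promoters. HSPA8 had 2 blocks in which both forms overlap, and HSP90AB1 and HSPD1 had 1 such block each. The letters of neither motif were found in the windows of HSPE1, HSPA9 and HSP90AA1. The gene models of HSPB1 and HSP90AA1 begin at the start codon, with 0 bases before it, so the true starts may lie upstream of their windows. HSPD1 and HSPE1 lie head to head on chromosome 15, with 520 bases between the models, so the block in the HSPD1 window lies between the genes, outside the HSPE1 window.

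The 10 genes lie on 9 places of the assembly. HSPA5 is at chr1:265930044-265934959, HSP90B1 at chr5:80511513-80531016, HSPA8 at chr9:49982278-49986760, HSPH1 at chr11:7733874-7759528, HSP90AB1 at chr7:39237299-39250479, HSPB1 at chr3:10038074-10039441 and HSPA9 at chr2:140515239-140532164. HSPD1 is at chr15:101360355-101373498 with HSPE1 beside it at chr15:101374019-101376146, and HSP90AA1 lies on an unplaced scaffold. The values cover the exons of these genes. Reads shared with near copies are a limit for 1 member. The transcripts were aligned to the whole genome, and HSPE1 had 3 other loci that cover at least 50% of its 568 bases at 90% identity or more, the best at 92.2%, whereas no other member had any. No stretch of 50 bases was shared between any 2 of the 10 transcripts, HSP90AA1 and HSP90AB1 included. How reads with several places were counted is not given in the sources used here.

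The level of the members differed widely. Mean FPKM over the 6 ovaries was 691 for HSPB1, 541 for HSPA8, 344 for HSP90AB1, 341 for HSP90AA1, 290 for HSPA5, 197 for HSP90B1, 123 for HSPA9, 105 for HSPD1, 99.8 for HSPE1 and 23.1 for HSPH1. Among the 12260 genes tested, HSPB1 was number 59 by mean level and HSPH1 number 2737. The order held in all 6 ovaries for HSPA5 above HSP90B1, HSP90B1 above HSPA9, and HSPE1 above HSPH1. HSPB1 above HSPA8 and HSPA8 above HSP90AB1 each held in 5 of 6 ovaries, with log2 ratios of 0.32 ± 0.47 and 0.65 ± 0.55 (SD, n = 6), the first within its spread. The other neighbours did not differ beyond their spread either. HSP90AB1 was above HSP90AA1 in 4 of 6 ovaries, with a log2 ratio of 0.03 ± 0.13 (SD, n = 6), and HSPD1 was above HSPE1 in 3 of 6, with 0.10 ± 0.40. HSPA9 was above HSPD1 in 4 of 6 (0.25 ± 0.33) and HSP90AA1 above HSPA5 in 3 of 6 (0.25 ± 0.79). Together the 10 genes took between 0.483% (ZD8) and 0.659% (ZD3) of the reads of a library.

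**Figure D1:**
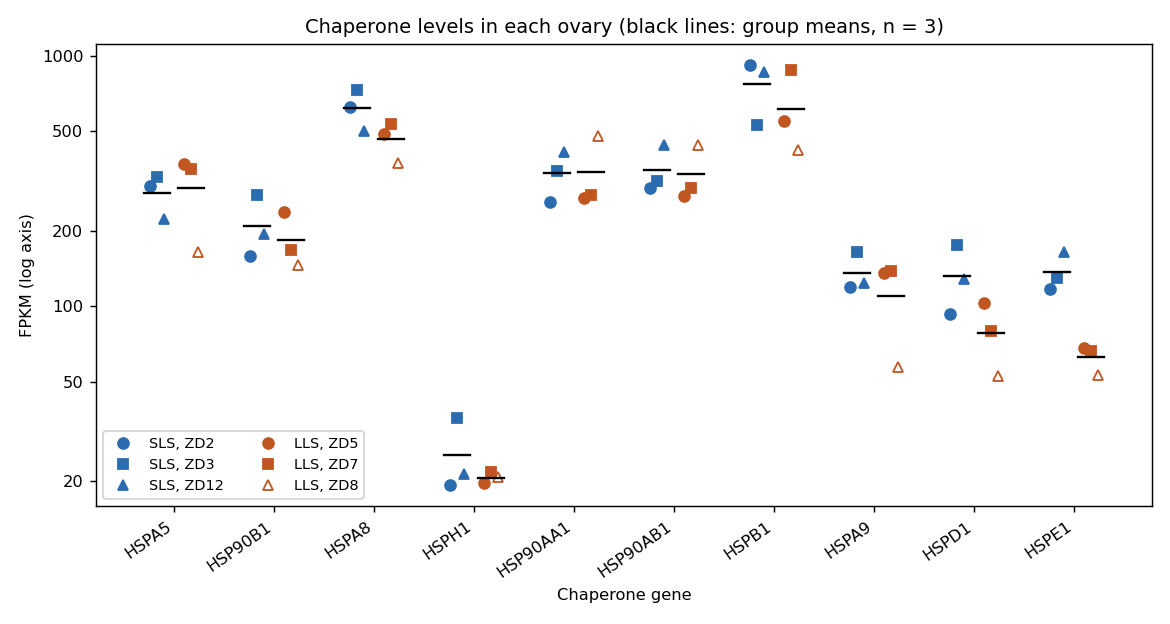
FPKM of each chaperone gene (log axis) in the 3 SLS ovaries (blue) and the 3 LLS ovaries (orange, ZD8 as an open triangle), with group means as black lines. HSPE1 is the gene whose 3 SLS points (117 to 164 FPKM) all lie above its 3 LLS points (52.9 to 68.3 FPKM).

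The question of the design was whether the ovaries of the litter size groups differ. No member passed the test of LLS against SLS (limma on log2(FPKM + 1), with a Benjamini-Hochberg adjusted p under 0.05 and a log2 difference over 1 in size), and each of the 10 had an adjusted p of 0.999. Over all 12260 genes the same rule called 0 genes (0%). At an unadjusted p under 0.05 there were 216 genes (1.76%), and 1 of the 10 members was among them, HSPE1. All 3 LLS values lay under all 3 SLS values for 389 genes (3.17%), HSPE1 again being the 1 member. The opposite was found for 239 genes (1.95%) and for 0 members.

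HSPE1, the HSP10 lid of the mitochondrial folding chamber, differed most. Its level was 117 FPKM in ZD2, 130 in ZD3 and 164 in ZD12, and 68.3 FPKM in ZD5, 66.5 in ZD7 and 52.9 in ZD8. All 3 SLS ovaries were thus higher, and the LLS ovaries lay close together. The means were 137 ± 24.3 FPKM in SLS and 62.6 ± 8.41 FPKM in LLS (SD, n = 3 each), 2.19-fold higher in SLS. In log2(FPKM + 1), LLS differed from SLS by -1.11 (SE 0.30, 95% interval -1.79 to -0.43). The unadjusted p of limma was 0.00524, number 31 of 12260, while the adjusted p was 0.999 and between 0.0922 and 1 over the alternatives. The exact two-sided permutation test gave p = 0.1, the smallest that 3 against 3 ovaries can give. Without ZD8 the level was 2.03-fold higher in SLS, with a log2 difference of -0.999 and an adjusted p of 0.269 by limma. The values of HSPE1 rest on 970 (ZD8) to 4935 reads (ZD12), fewer than for any other member in 5 of the 6 ovaries, and its 3 near copies in the genome apply here. Some marker genes also did not overlap between the groups, each with an adjusted p of 0.999 by limma. LHCGR (1 of 6 luteal markers, log2 difference -1.28) and INHA (1 of the 4 granulosa markers tested, -1.86) were lower in LLS. So was PECAM1 (1 of 4 endothelial markers, -0.96), while EGR1 (1 of the 5 immediate early genes tested, 1.52) was higher. Fitted differences were below 0 for 6 of 6 luteal, 2 of 4 granulosa, 2 of 4 endothelial and 1 of 5 immediate early genes. FSHR (1.15), AMH (0.96), VWF (0.17) and TEK (0.08) were above 0. Without ZD8 the differences were -0.92 for LHCGR, -1.30 for INHA, -0.52 for PECAM1 and 1.35 for EGR1. The part of these markers in the HSPE1 values was not tested.

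HSPD1, the HSP60 wall of the same chamber, was at 93.3 FPKM in ZD2, 175 in ZD3 and 128 in ZD12, and at 103 FPKM in ZD5, 79.8 in ZD7 and 52.6 in ZD8. The groups overlapped, since ZD2 was below ZD5. The means were 132 ± 40.9 FPKM in SLS and 78.4 ± 25.2 FPKM in LLS, and the log2 difference was -0.75 (SE 0.38, 95% interval -1.62 to 0.12, adjusted p = 0.999 by limma). It was -0.49 without ZD8. HSPA9, the mitochondrial HSP70 that pulls proteins through the inner membrane, was at 119, 165 and 124 FPKM in ZD2, ZD3 and ZD12, and at 136, 138 and 56.9 FPKM in ZD5, ZD7 and ZD8. Here ZD8 alone was low, and the other 5 ovaries were mixed. The log2 difference of HSPA9 was -0.39 (SE 0.42) with all ovaries and 0.02 without ZD8.

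In the ER, HSPA5 (BiP), the HSP70 that also holds the stress sensors of the unfolded protein response inactive, was at 302 FPKM in ZD2, 328 in ZD3 and 223 in ZD12, and at 369 FPKM in ZD5, 352 in ZD7 and 165 in ZD8. The LLS group held both the highest values and the lowest. The means were 284 ± 54.7 FPKM in SLS and 295 ± 114 FPKM in LLS, and the log2 difference was -0.01 (SE 0.45, 95% interval -1.05 to 1.02). Without ZD8 it was 0.36, with both other LLS ovaries above all SLS ovaries, as for 912 genes (7.44%), and with an adjusted p of 1 by limma. HSP90B1 (GRP94), the ER form of HSP90, was at 158, 277 and 194 FPKM in ZD2, ZD3 and ZD12, and at 238, 168 and 146 FPKM in ZD5, ZD7 and ZD8. The groups overlapped over most of this range, and the log2 difference was -0.18 (SE 0.38), or -0.0288 without ZD8.

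In the cytosol, HSPA8, the HSP70 that is made without stress, was at 623, 731 and 502 FPKM in ZD2, ZD3 and ZD12, and at 485, 532 and 373 FPKM in ZD5, ZD7 and ZD8. Only ZD7 and ZD12 were out of order between the groups. The means were 619 ± 115 FPKM in SLS and 463 ± 81.4 FPKM in LLS, with a log2 difference of -0.41 (95% interval -1.46 to 0.63, adjusted p = 0.999 by limma), or -0.27 without ZD8. HSPH1, an HSP110 that swaps the nucleotide of HSP70, was at 19.3, 35.9 and 21.4 FPKM in SLS and at 19.6, 21.8 and 20.7 FPKM in LLS, in the same order of ovaries. A single ovary, ZD3, was high, and the other 5 lay together, with a log2 difference of -0.24 with and without ZD8. HSPB1 (HSP27), a small heat shock protein that binds unfolded chains without ATP, was at 918, 527 and 860 FPKM in SLS and at 547, 879 and 419 FPKM in LLS. Each group held a high and a low ovary, and the log2 difference was -0.35 (SE 0.54), or -0.11 without ZD8.

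The HSP90 pair of the cytosol differed in direction from the rest in ZD8. HSP90AA1, the form that stress raises, was at 260, 347 and 411 FPKM in ZD2, ZD3 and ZD12, and at 271, 279 and 476 FPKM in ZD5, ZD7 and ZD8. HSP90AB1, the form that most cells make at all times, was at 297, 316 and 439 FPKM in SLS and at 276, 297 and 439 FPKM in LLS. For both genes ZD12 and ZD8, 1 ovary of each group, were the 2 highest. The log2 differences between the groups were -0.01 (SE 0.43) and -0.07 (SE 0.42), and -0.28 and -0.27 without ZD8. Without ZD8 the LLS ovaries were below every SLS ovary for 1429 genes (11.7%), among which HSP90AB1 and HSPE1 were the 2 members.

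**Figure D2:**
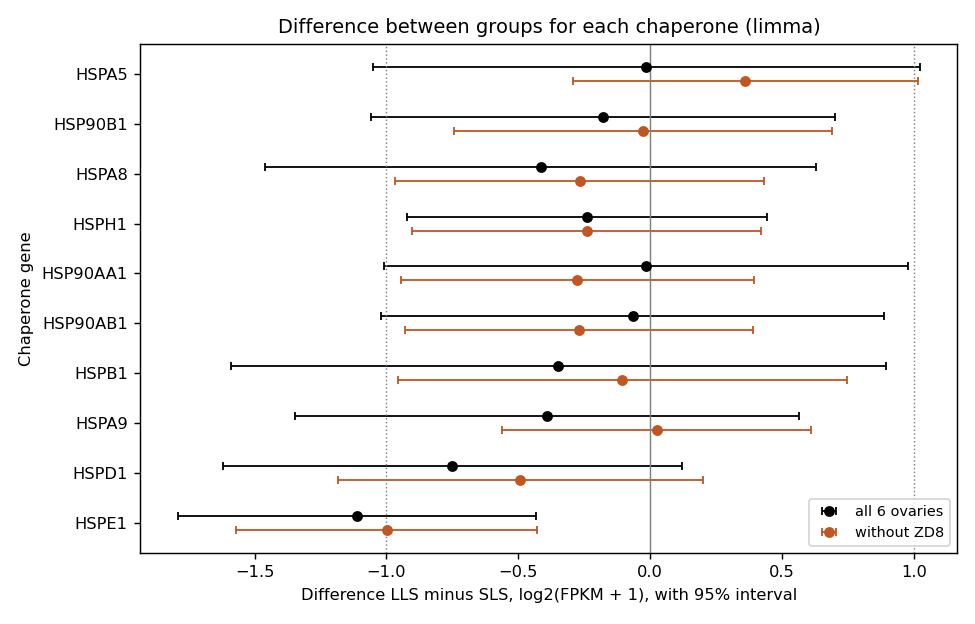
Difference of LLS from SLS in log2(FPKM + 1) for each chaperone gene, with 95% intervals from limma, for all 6 ovaries (black) and without ZD8 (orange); dotted lines mark 1 on either side. The interval of HSPE1 (-1.79 to -0.43, not adjusted) leaves out 0, and those of the other 9 genes hold it.

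With all 6 ovaries the 10 members had a fitted difference below 0, HSPA5 and HSP90AA1 only by 0.01, against 47.4% of all genes tested. The members share the same libraries, so their directions are not separate observations. Without ZD8, 8 of 10 were below 0, and HSPA5 and HSPA9 were above 0. The share of all genes without ZD8 was not counted. The median over the members was -0.29 on the log2 scale, and over all genes tested it was 0.02. Without ZD8 these medians were -0.25 and -0.10, so the genes tested as a whole also lay lower in LLS there. The SD of the log2 values over the 6 ovaries had a median of 0.41 for the members and 0.40 for all genes tested. The width of the intervals bears on what was not seen. For HSP90AA1 the 95% interval (not adjusted) ran from -1.01 to 0.98, so a change of close to 2-fold in either direction lies within it.

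ZD8 was below all 5 other ovaries for 7 members (HSPA5, HSP90B1, HSPA8, HSPB1, HSPA9, HSPD1 and HSPE1) and for 3229 of the genes tested (26.3%). It was above all 5 others for 1 member, HSP90AA1, and for 5465 genes (44.6%). The mean of the other 5 ovaries was 2.40-fold the ZD8 value for HSPA9, 2.20-fold for HSPD1, 2.06-fold for HSPE1 and 1.91-fold for HSPA5. It was 1.78-fold for HSPB1, 1.54-fold for HSPA8 and 1.42-fold for HSP90B1. These folds pool both groups. The lowest of the other 5 ovaries was 1.08-fold (HSP90B1) to 2.10-fold (HSPA9) the ZD8 value over the 7 members, with 1.35-fold for HSPA5 and 1.26-fold for HSPE1. The summed luteal markers were lower in ZD8 as given above, and their part in these values was not tested.

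**Figure D3:**
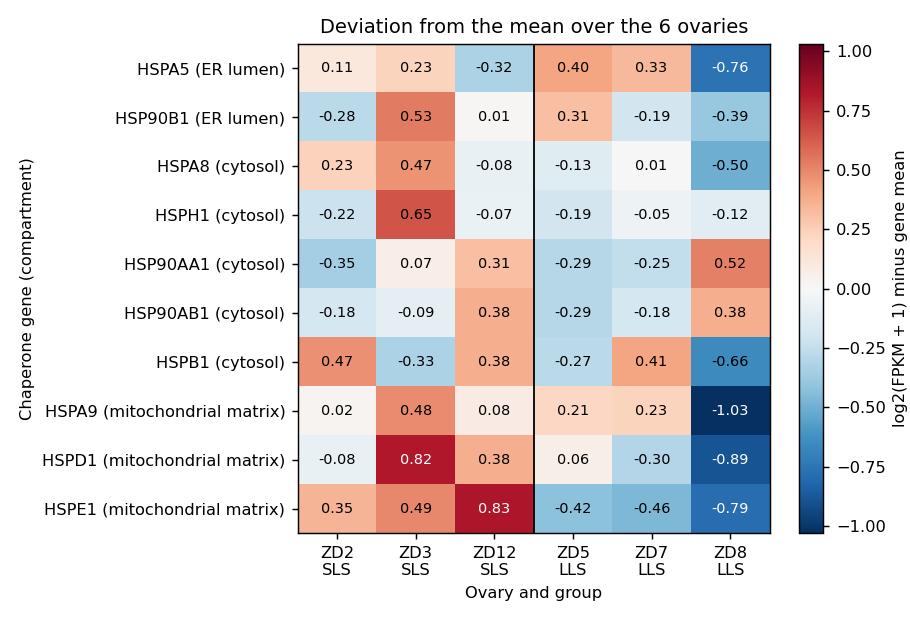
Deviation of log2(FPKM + 1) from the gene's mean over the 6 ovaries, for each chaperone gene (rows, with compartment) and ovary (columns, with group), red above and blue below the mean. ZD8 is lowest for 7 genes, down to -1.03 for HSPA9, and is above the mean for HSP90AA1 (0.52) and HSP90AB1 (0.38).

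Members that work side by side were compared as ratios within each ovary, which do not depend on the scaling of a library. The 5 pairs were compared between LLS and SLS by an exact two-sided permutation test, with p adjusted over the 5. HSP90AA1 to HSP90AB1 had the steadiest ratio, from 0.873 (ZD2) to 1.10 (ZD3), although ZD8 and ZD12 were high for both. Its log2 difference between groups was 0.05 (exact p = 0.7). HSPD1 to HSPE1 ranged from 0.780 (ZD12) to 1.51 (ZD5), with a log2 difference of 0.37 (exact p = 0.3). The wall and the lid of the mitochondrial chamber thus varied in their transcript ratio by more than the HSP90 pair did in its own. HSPA5 to HSP90B1 ranged from 1.13 (ZD8) to 2.10 (ZD7), with a difference of 0.17 (exact p = 0.7). HSPH1 to HSPA8 ranged from 0.0309 (ZD2) to 0.0555 (ZD8), with 0.17 (exact p = 0.6), and HSPA9 to HSPD1 from 0.941 (ZD3) to 1.73 (ZD7), with 0.36 (exact p = 0.2). Every adjusted p was 0.7. Without ZD8 the log2 differences were -0.0061 for HSP90AA1 to HSP90AB1, 0.51 for HSPD1 to HSPE1, 0.39 for HSPA5 to HSP90B1, 0.0177 for HSPH1 to HSPA8 and 0.52 for HSPA9 to HSPD1.

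**Figure D4:**
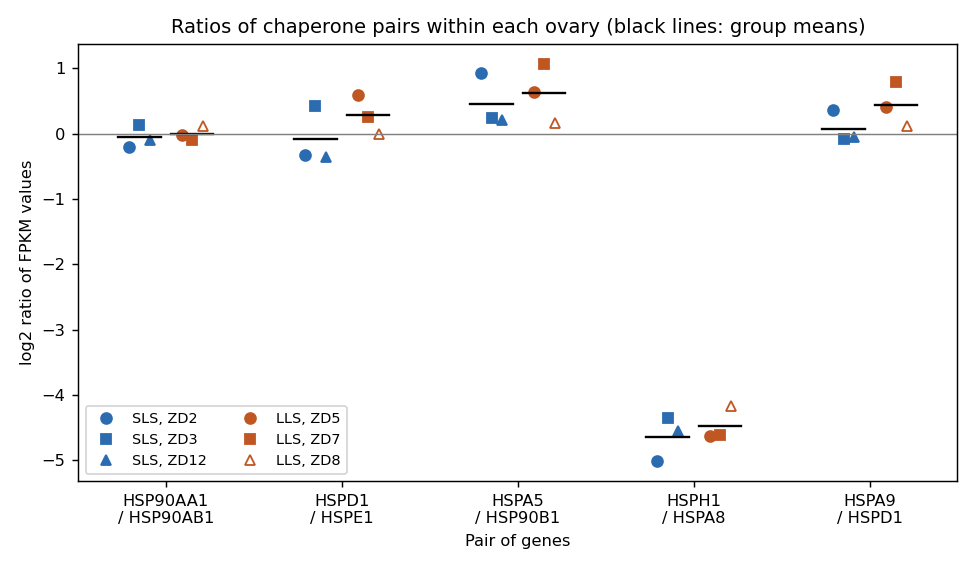
Log2 ratio of FPKM values for 5 pairs of chaperone genes in each ovary, SLS in blue and LLS in orange (ZD8 as an open triangle), with group means as black lines. The HSP90AA1 to HSP90AB1 ratio stays between 0.873 and 1.10, whereas the HSPD1 to HSPE1 ratio runs from 0.780 to 1.51.

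Across the 6 ovaries the members did not move as 1 block. Of the 45 pairs, 29 had a Pearson r above 0 on the log2 scale, with a median r of 0.36, and 30 did without ZD8, with a median of 0.23. All pairs share the same 6 libraries, and the values are a description. HSP90AA1 and HSP90AB1 had the highest r (0.94, and 0.90 without ZD8), followed by HSPA5 and HSPA9 (0.86, and 0.46 without ZD8) and by HSP90B1 and HSPD1 (0.84 and 0.79). The lowest r was that of HSPA5 and HSP90AB1 (-0.93, and -0.95 without ZD8). In the ovaries with the most HSPA5, ZD5 and ZD7, HSP90AB1 was at 276 and 297 FPKM, and in those with the least, ZD8 and ZD12, it was at 439 FPKM.

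For 1 member of each compartment, the tested genes with the highest r over the 6 ovaries were listed. For HSPA5 they were SLC25A24 (r = 0.996), MAP1B (0.99) and SQLE (0.99), the last an enzyme of cholesterol synthesis. SQLE was at 102 and 106 FPKM in ZD5 and ZD7, at 63.1, 82.7 and 30.8 FPKM in the SLS ovaries, and at 8.91 FPKM in ZD8. For HSP90AA1 they were TCTEX1D2, GTPBP4 and BTF3, each with r of 0.99 or more. For HSPD1 they were CCT8 (r = 0.998), TMLHE (0.99) and ARHGAP11A (0.99). All the genes listed here were picked as the highest among all genes tested, from 6 ovaries. An r picked in this way does not by itself show a link with the member. How high the best r would be without any link was not tested. CCT8, a subunit of the cytosolic CCT chaperonin, was at 60.4, 88.9 and 74.3 FPKM in ZD2, ZD3 and ZD12, and at 64.7, 57.2 and 42.6 FPKM in ZD5, ZD7 and ZD8.

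The partners of the members were read from 9 lists with 97 genes, of which 94 were in the table and 92 were tested. HSPA1A and HSPA1B share the row HSP70.2, and PPP5C and HSF4 were not matched to a row. None of the 92 was called with all 6 ovaries. In 8 of them (8.7%, against 3.17% of all genes tested) the LLS values all lay under the SLS values, and in 0 they all lay over them (1.95% of all genes tested). A fitted difference below 0 was found for 57 of the 92, against 47.4% of all genes tested, with a median of -0.08.

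TRAP1, the HSP90 of mitochondria, was the partner with the largest difference downwards. It was at 50.8, 39.3 and 56.8 FPKM in ZD2, ZD3 and ZD12, and at 28.3, 19.4 and 14.6 FPKM in ZD5, ZD7 and ZD8. The groups did not overlap, and the log2 difference was -1.23 (SE 0.32, unadjusted p = 0.00423 and adjusted p = 0.999 by limma), or -1.02 without ZD8 with an adjusted p of 0.3001. Also without overlap were 2 other genes of mitochondria, the protease subunit CLPP (-0.65, unadjusted p = 0.0479 by limma) and the import protein TIMM44 (-0.42, or -0.17 without ZD8). The same held for the ER genes PDIA6 (-0.31, or -0.16 without ZD8), a disulfide isomerase, and CRELD2 (-0.65), for the stress transcription factors ATF4 (-0.49) and XBP1 (-0.45), and for HSPB3 (-0.93), a small heat shock protein at 1.62 FPKM or less. XBP1 was at 253, 205 and 259 FPKM in SLS and at 162, 188 and 171 FPKM in LLS, and ATF4 at 123, 90.2 and 90.6 FPKM in SLS and at 63.3, 76.7 and 73.7 FPKM in LLS. HSPA5, a known target of the unfolded protein response, overlapped between the groups as given above. Over the 12 genes of the unfolded protein response list, 5 had a fitted difference below 0, and the median was 0.02.

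ERO1B, an oxidase that recharges the disulfide isomerases of the ER, split the LLS group. It was at 310 FPKM in ZD5 and 137 FPKM in ZD7, but at 9.66 FPKM in ZD8, against 8.22, 17.3 and 12.8 FPKM in ZD2, ZD3 and ZD12. With all ovaries the log2 difference was 2.54 (SE 1.07, adjusted p = 0.999 by limma). Without ZD8 it was 3.97 with an adjusted p of 0.0207, which made ERO1B the 1 partner among the 21 genes called without ZD8 (0.171% of those tested), while 0 of the 10 chaperones were called. Its paralog ERO1A, picked after its values were seen, was at 16.2 to 29.3 FPKM in SLS and at 28.4, 22.8 and 35.6 FPKM in ZD5, ZD7 and ZD8. TRIB3, an inhibitor that is induced by ATF4 and was picked in the same way, was also high in ZD5 and ZD7 (35.2 and 29.9 FPKM) and low in ZD8 (0.907 FPKM), against 6.34 to 11.9 FPKM in SLS. Without ZD8 its adjusted p by limma was 0.0584.

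Of the co-chaperones of HSPA5 in the ER, DNAJB11 and HYOU1 are named. DNAJB11, its J-domain partner, was at 15.1, 18.7 and 15.3 FPKM in SLS and at 20.7, 20.03 and 6.56 FPKM in LLS. HYOU1, its nucleotide exchanger, was at 103, 75.6 and 65.5 FPKM in SLS and at 115, 117 and 34.2 FPKM in LLS. In both, ZD5 and ZD7 were the 2 highest ovaries and ZD8 the lowest, as for HSPA5. The lectins CALR (342 to 682 FPKM) and CANX (118 to 231 FPKM) and the isomerase PDIA4 (111 to 170 FPKM) were also lowest in ZD8. So were 26.3% of all genes tested. The median difference of the 14 ER folding genes was -0.29 with all ovaries and 0.01 without ZD8.

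In the cytosol, DNAJA1, a J-domain partner of HSPA8, was at 264, 630 and 262 FPKM in SLS and at 414, 355 and 65.6 FPKM in LLS, with the top value in ZD3 as for HSPA8 and HSPH1. HSP70.2, which stands for the inducible HSP70 of the cytosol, was at 81.1 FPKM in ZD8 and at 12.8 to 21.9 FPKM in the other 5 ovaries, and DNAJB1 was at 88.2 FPKM in ZD8 and at 38.1 to 62.3 FPKM in the others. CRYAB (13.7 FPKM) and HSPB6 (50.5 FPKM), small heat shock proteins abundant in muscle, were highest in ZD8 as well, as were 44.6% of all genes tested, whereas the small heat shock protein HSPB1 was lowest there. BAG3, a nucleotide exchanger for HSP70, was lowest in ZD8 (14.1 FPKM), as were 26.3% of all genes tested. HSF1, the main heat shock transcription factor, was at 9.11 to 19.1 FPKM with ZD8 the highest. STIP1, which links HSP70 to HSP90, was at 37.6 to 54.4 FPKM, with a log2 difference of -0.14. In the mitochondria, the HSPA9 partners GRPEL1 (16.9 to 24.99 FPKM) and DNAJA3 (16.0 to 35.2 FPKM) were both lowest in ZD8, again like 26.3% of all genes tested. Their log2 differences were -0.28 and -0.0945. Without ZD8 these were -0.26 and 0.23, so that of DNAJA3 turned in direction.

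**Figure D5:**
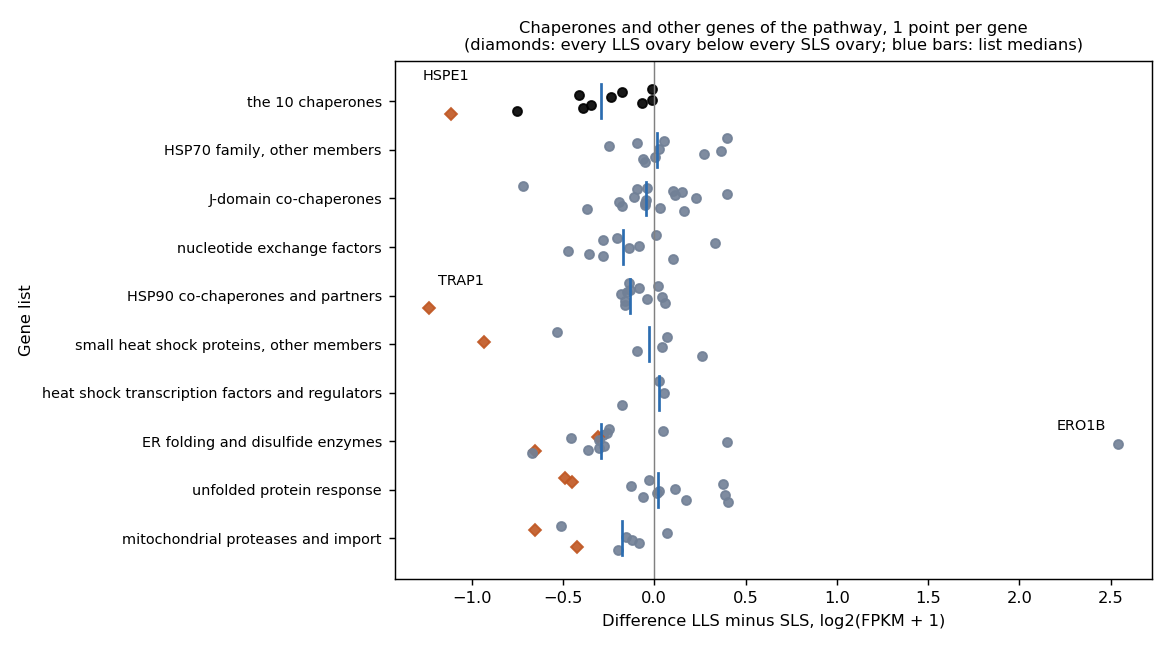
Difference of LLS from SLS in log2(FPKM + 1) for the 10 chaperones and for the 92 tested genes of 9 lists, 1 point per gene, with list medians as blue bars and orange diamonds where the LLS values all lay under the SLS values. HSPE1 (-1.11) and TRAP1 (-1.23) lie farthest to the left, and ERO1B (2.54), which rests on ZD5 and ZD7, farthest to the right.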

How the data were processed

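Gene expression was measured in 6 ovaries, 3 per group, grouped by the labels. After removal of ribosomal RNA and trimming of low-quality bases (NGSQCToolkit), the authors aligned the reads with HISAT2 (Sscrofa 11.1), and the gene table they deposited is in FPKM. The program that counted reads on genes is not given in the sources used here. The deposited small RNA table was not used. The FPKM values gave whole reads (within 0.001) in every library for 23477 of 23546 genes above 0 FPKM with an annotated transcript (99.71%), when multiplied by the length of the longest transcript, and depths and read numbers come from there.

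The members and the gene lists were chosen with earlier results of these data known, and the lists are therefore no independent evidence. Genes with at least 1 FPKM in at least 3 libraries (12260) were tested with limma 3.58.1 (R 4.3.3), with a trended variance on log2(FPKM + 1), which understates the change of low genes. P-values were adjusted over all 12260 genes by Benjamini-Hochberg, and a gene was called at an adjusted p under 0.05 and a log2 difference over 1, the thresholds of the study. Single values were compared by exact two-sided permutation tests (scipy 1.17.1). Each ovary is 1 sow, as far as the sources used here tell. Transcripts were aligned with minimap2 2.31, and the sequences were read from the Sscrofa11.1 assembly with its RefSeq annotation. Named partners were the non-overlapping or called genes of the lists and a fixed set of co-chaperones and other partners. ERO1A and TRIB3 were added after their values were seen. The alternatives were another pseudocount, 2 other filters, rescaling to TPM, median centring, quantile normalization, array weights, a call without the fold threshold, ratios of FPKM + 1, and leaving out each ovary in turn.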

Additional observations from a re-analysis of the deposited data

How the results depend on the processing

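No member was called under any alternative run. Over all genes, 13 were called with limma's array weights (1252 genes at an unadjusted p under 0.05) and between 0 and 21 when 1 ovary was left out, the 21 without ZD8 (15 higher and 6 lower in LLS). The other alternatives called 0 genes, and the number of genes whose unadjusted p was under 0.05 ran from 177 to 416. HSPA8, HSPB1, HSPD1 and HSPE1 kept a difference below 0 in all 13 alternatives. The direction turned for the other 6, and the cause was not tested. HSPA5 was at 0.17 with quantile normalization and 0.43 with array weights. HSP90B1 was at 0.0531 and HSPA9 at 0.0592 with array weights. HSP90AA1 was at 0.0218 and HSP90AB1 at 0.0076 with quantile normalization. When 1 ovary was left out, the differences ran from -0.22 to 0.36 for HSPA5, from -0.38 to 0.0428 for HSP90B1, from -0.41 to 0.0249 for HSPH1, from -0.28 to 0.14 for HSP90AA1, from -0.27 to 0.11 for HSP90AB1 and from -0.61 to 0.0247 for HSPA9. They ran from -1.22 to -0.98 for HSPE1, from -0.97 to -0.49 for HSPD1, from -0.56 to -0.27 for HSPA8 and from -0.64 (without ZD7) to -0.11 (without ZD8) for HSPB1. Between 1 and 2 members had all LLS values under all SLS values, the 2 without ZD8 being HSPE1 and HSP90AB1 (11.7% of all genes), where HSPA5 lay over them (7.44%). The log2 difference of the ratio ran from -0.0199 to 0.15 for HSP90AA1 to HSP90AB1, from -0.0573 to 0.40 for HSPA5 to HSP90B1 and from -0.0217 to 0.31 for HSPH1 to HSPA8, from 0.21 to 0.63 for HSPD1 to HSPE1 and from 0.18 to 0.52 for HSPA9 to HSPD1. Array weights moved the median of all genes to -0.12, against which the member values under that setting are read. With 3 ovaries per group, a level close to 2-fold lower in LLS lies within the interval of every member. One close to 2-fold higher does not for HSPE1, HSPD1, HSPH1, HSPA9, HSPA8 and HSP90B1. No paired analysis was made, because the groups are different sows, as far as the sources used here tell, and nothing matches an SLS sow to an LLS sow.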
